A study of Mus musculus with 9 samples.

Results

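The RNA of 10 mouse genes that govern the resumption of meiosis was measured in nuclei and cytoplasms of oocytes with and without MTR4: the B-type cyclins Ccnb1, Ccnb2 and Ccnb3, their kinase partner Cdk1, the phosphatases Cdc25a and Cdc25b, the inhibitory kinases Wee1 and Wee2, and the kinases Mos and Plk1. These 10 genes were taken by symbol from a table of 23235 genes, and all 10 were present. MTR4 is the RNA helicase that hands nuclear transcripts to the exosome for degradation. Without MTR4, Ccnb3 and Plk1 RNA was lower and Wee1 RNA was higher in both compartments, while the other 7 genes stayed within 2-fold of WT once the columns were put on a common scale.

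The oocytes came from mice at day 21, and the nucleus of each oocyte was taken out with a micromanipulator so that nuclei and cytoplasms could be sequenced apart, 10 to a library. The labels list 2 libraries of MTR4-null nuclei, 3 of WT nuclei, 2 of MTR4-null cytoplasms and 2 of WT cytoplasms. How the null allele was made, and whether a Cre driver was used, cannot be said from the labels. The deposited table holds 1 column for each of these 4 groups, in FPKM (fragments counted for a gene, scaled by transcript length and by the mapped total). No replicate values were analysed here, so the values carry no SD, n or p, and every difference describes these columns with an unknown error.

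An oocyte of this age is held at the germinal vesicle stage, in prophase of the first meiotic division. It resumes meiosis when Cdk1 bound to a B-type cyclin becomes active. Wee1 and Wee2 hold Cdk1 inactive by phosphorylating it, and Cdc25 phosphatases remove that phosphate. Plk1, the Polo-like kinase, helps to activate Cdc25 and later acts on the spindle. Mos starts the MAP kinase cascade that keeps the mature egg arrested in metaphase of the second division.

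Sequences near the start and end of these genes are given first, because the genes that differed most between genotypes are compared in them. RefSeq promoters (assembly GRCm38.p6) of 300 bases, with 250 before and 50 after the start, were found for 8 of the 10 genes, all but Wee1 and Mos. Promoters of genes used late in the cell cycle often hold a CCAAT box and a cell cycle genes homology region. Searched were CCAAT and its reverse complement ATTGG, and for the homology region TTTGAA, its reverse complement TTCAAA, and TTCGAA, which reads the same on both strands. A CCAAT match was found in 7 of the 8 promoters, against 37.4% of the 32851 promoters in the RefSeq table. A homology region match was found in 4 of the 8, against 19.2%, and these 4 (Ccnb2, Cdk1, Cdc25b and Plk1) also had a CCAAT match, against 7.52% for both. The Ccnb3 promoter had neither. Shown are both genes whose RNA was lower without MTR4, Ccnb3 and Plk1, and Cdk1, whose RNA followed the other genes, each 5′ to 3′ with the matches in capitals.
Ccnb3 promoter (chrX:7041570-7041869, minus strand): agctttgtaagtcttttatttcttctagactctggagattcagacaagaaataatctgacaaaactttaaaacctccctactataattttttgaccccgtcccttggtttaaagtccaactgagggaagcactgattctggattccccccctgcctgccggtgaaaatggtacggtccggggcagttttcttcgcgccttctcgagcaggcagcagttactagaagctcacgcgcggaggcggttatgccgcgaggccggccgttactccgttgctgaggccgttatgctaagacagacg
Plk1 promoter (chr7:122159185-122159484, plus strand): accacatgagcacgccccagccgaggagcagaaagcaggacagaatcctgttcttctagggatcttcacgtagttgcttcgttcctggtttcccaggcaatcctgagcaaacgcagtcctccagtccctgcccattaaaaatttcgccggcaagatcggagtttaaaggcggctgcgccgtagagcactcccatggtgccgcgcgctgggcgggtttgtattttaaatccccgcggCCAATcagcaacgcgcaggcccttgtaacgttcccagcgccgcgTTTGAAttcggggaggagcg
Cdk1 promoter (chr10:69352863-69353162, minus strand): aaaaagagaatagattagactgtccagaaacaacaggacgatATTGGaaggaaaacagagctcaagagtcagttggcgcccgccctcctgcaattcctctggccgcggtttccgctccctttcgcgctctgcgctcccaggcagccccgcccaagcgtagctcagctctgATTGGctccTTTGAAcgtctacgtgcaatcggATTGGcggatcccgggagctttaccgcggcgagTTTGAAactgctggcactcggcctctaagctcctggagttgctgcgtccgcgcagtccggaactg
Both kinds of match are present in Plk1 and Cdk1, and also in Ccnb2 and Cdc25b, which are not shown. Whether the promoter matches have a part in the RNA values was not tested. A match is a string of letters and not a measured site.

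The 3′ ends were searched for cytoplasmic polyadenylation elements, short U-rich motifs through which stored maternal mRNAs gain a tail when meiosis resumes. TTTTAT and TTTTAAT were looked for on the transcript strand in the last 100 bases of the longest coding transcript of each gene (GENCODE M21, GRCm38). At least 1 match was found in 17.8% of 19684 coding genes with a 3′ UTR of that length, and at least 2 in 2.62%. Wee2 had 2 and Ccnb3 had 1, and the other 8 genes had none in this window. Over the whole 3′ UTR, Cdc25a had 6 matches, Ccnb1 had 4, Cdk1 and Wee2 had 2 each, and Ccnb2 and Ccnb3 had 1 each. Cdc25b, Wee1, Mos and Plk1 had 0 there. The annotated 3′ UTR ran from 126 bases (Mos) to 3352 bases (Cdk1), and a longer one offers more places for a match. The share of all genes with a match in the whole 3′ UTR was not counted, so these counts have no background. The 30 bases around each match in the 100-base window of Ccnb3 and Wee2 are given, with the elements and any AATAAA signal in capitals. Whether the matches have a part in the RNA values was not tested.
Ccnb3 site 1 (chrX:6979700-6979729, minus strand): ttgaaattacTTTTATgaaagaagagaaat
Wee2 site 1 (chr6:40466758-40466787, plus strand): ttttaacataTTTTAATccagatcattgta
Wee2 site 2 (chr6:40466784-40466813, plus strand): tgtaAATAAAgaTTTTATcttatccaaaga
The window depends on the annotated end, which need not be the end used in the oocyte. Per the labels' protocols the libraries were made after depletion of rRNA.

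RNA of the Mtr4 gene (symbol Skiv2l2 in the table) stood at 2.91 FPKM in MTR4-null nuclei and 16.2 FPKM in WT nuclei, and at 2.51 FPKM in MTR4-null cytoplasms and 21.6 FPKM in WT cytoplasms. All 12 oocyte markers, among them Zp3, Gdf9 and Nlrp5, were at 23.4 FPKM or more in every column. The 15 markers of granulosa cells, the somatic cells around the oocyte, summed to 61.2 FPKM in MTR4-null nuclei and 81.3 FPKM in WT nuclei, and to 46.2 FPKM in MTR4-null cytoplasms and 61.1 FPKM in WT cytoplasms, against 6572 to 10885 FPKM for the oocyte markers. Of the 15, 13 pass the filter. In MTR4-null nuclei 4 of these 13 were at least 2-fold higher (Amh, Hsd17b1, Kctd14 and Kitl) and 3 lower (Cyp11a1, Inhba and Inhbb), and in MTR4-null cytoplasms 0 were higher and 2 lower (Inhba and Inhbb). The marker with the widest nuclear difference among the lower ones, Cyp11a1, was at 1.47 FPKM in MTR4-null nuclei and 21.3 FPKM in WT nuclei, and that among the higher ones, Hsd17b1, at 6.15 FPKM in MTR4-null nuclei and 0.424 FPKM in WT nuclei. Amh, a defining marker, was at 1.44 FPKM in MTR4-null nuclei and 0 in WT nuclei, and at 1.10 FPKM in MTR4-null cytoplasms and 2.36 FPKM in WT cytoplasms. The part of granulosa RNA in the differences was not tested. In pooled oocytes, fewer cells that hold an RNA and less of it per cell cannot be told apart.

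The levels of the 10 genes spanned a wide range. Ccnb1, the main B-type cyclin, was at 256 FPKM in MTR4-null nuclei, 294 FPKM in WT nuclei, 202 FPKM in MTR4-null cytoplasms and 344 FPKM in WT cytoplasms. Mos was at 331 FPKM in MTR4-null nuclei, 246 FPKM in WT nuclei, 211 FPKM in MTR4-null cytoplasms and 296 FPKM in WT cytoplasms. Mos therefore stood above Ccnb1 in both MTR4-null columns and below it in both WT columns, but the values of these neighbours lie within 1.29-fold of each other and their spread between libraries is unknown. Wee2, the Wee1 relative known as an oocyte kinase, came next after these in every column, at 154 FPKM in MTR4-null nuclei, 156 FPKM in WT nuclei, 94.5 FPKM in MTR4-null cytoplasms and 204.5 FPKM in WT cytoplasms. Among the genes that pass the filter (at least 1 FPKM in at least 1 column), Ccnb1, Mos and Wee2 lay at or above percentile 96.9 in all 4 columns. At the other end of the WT order stood Cdk1, Ccnb3 and Wee1. In WT nuclei they were at 22.7, 19.4 and 17.1 FPKM, and in WT cytoplasms at 24.0, 12.4 and 18.1 FPKM. Wee1 left this low end in the MTR4-null columns and Ccnb3 became the lowest of the 10 there.

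**Figure D1:**
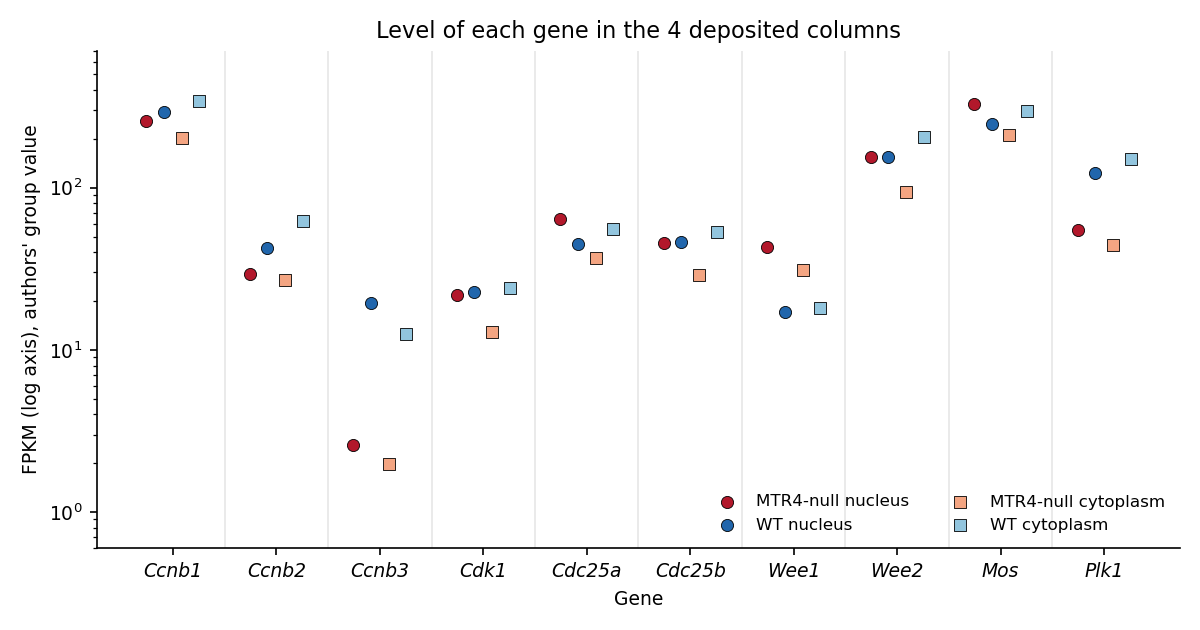
FPKM (log axis) of each gene in the 4 deposited columns, 1 point per column, with circles for nuclei and squares for cytoplasms. The MTR4-null points of Ccnb3 (2.59 and 1.97 FPKM) and Plk1 (55.2 and 44.3 FPKM) lie below both of their WT points, and those of Wee1 (43.3 and 31.0 FPKM) lie above both.

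The first comparison asks how these RNAs differed in the nuclear samples without MTR4. Of the 10 genes, 1 was at least 2-fold higher in MTR4-null nuclei (Wee1) and 2 were lower by that much (Ccnb3 and Plk1) on the log2(FPKM + 1) scale, whose pseudocount of 1 understates differences of low genes. Among all 14270 genes that pass the filter, 23.9% were higher and 12.3% lower by the same measure, so the counts among the 10 genes do not stand out. The median difference of the 10 genes was -0.05, against 0.21 over all genes. The 2606 most abundant genes, with a minimum of 20 FPKM across the columns, include 7 of the 10 (all but Ccnb3, Cdk1 and Wee1). Of these abundant genes 8.29% were 2-fold higher and 3.18% 2-fold lower. Among the 7, only Plk1 was called, as lower. The minimum in every column leaves out genes that are low in either genotype, as are Wee1 and Ccnb3.

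In the cytoplasm, 0 of the 10 genes were at least 2-fold higher without MTR4 and 4 were at least 2-fold lower, namely Ccnb3, Plk1, Ccnb2 and Wee2. Over all genes 15% were higher and 21.4% lower, and among the abundant genes 1.8% were higher and 30.7% lower. Of the 4 lower genes, all but Ccnb3 belong to the abundant genes. The median difference was -0.85 for the 10 genes, -0.26 for the whole table and -0.72 for the abundant genes. Small RNA genes held 39.0% of all FPKM in MTR4-null cytoplasms and 4.09% in WT cytoplasms, and the part of this in the lower cytoplasmic values was not tested. With the columns centred by the median ratio of genes that reach 1 FPKM in all of them, the cytoplasmic counts became 1 higher (Wee1) and 2 lower (Ccnb3 and Plk1), against 22.1% and 7.76% over all genes. In the nucleus centring left 1 higher and 2 lower, against 19.5% and 15% over all genes.

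**Figure D2:**
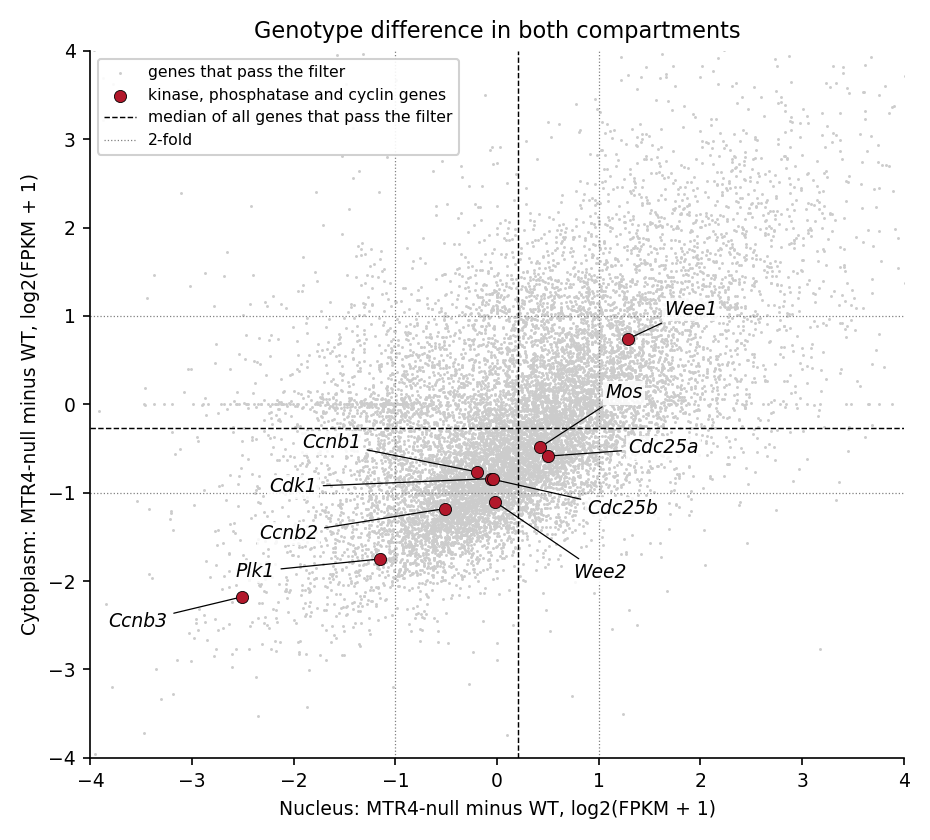
Difference between MTR4-null and WT in log2(FPKM + 1), in the nucleus (horizontal axis) and in the cytoplasm (vertical axis), for all genes that pass the filter (grey) and the 10 genes (red). Dashed lines mark the medians of all genes (0.21 and -0.26) and dotted lines a 2-fold difference, and 271 genes lie outside the axes. Ccnb3 and Plk1 sit at the lower left and Wee1 at the upper right, with the other 7 genes between them.

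Ccnb3 showed the largest difference of the 10. This cyclin is needed in mouse oocytes for the step from metaphase to anaphase of the first meiotic division. Its gene lies on chromosome X from 6979652 to 7041619 (GRCm38, minus strand). Ccnb3 RNA was at 2.59 FPKM in MTR4-null nuclei and 19.4 FPKM in WT nuclei, a 7.49-fold lower FPKM. In MTR4-null cytoplasms it was at 1.97 FPKM, against 12.4 FPKM in WT cytoplasms, 6.32-fold lower. On the log2(FPKM + 1) scale the differences were -2.51 and -2.18, at percentiles 1.07 and 1.30 of all genes. With centring they were -2.65 and -1.74. Both MTR4-null values lie below both WT values. Of the 13 granulosa markers that pass the filter, 4 were at least 2-fold higher and 3 lower in MTR4-null nuclei. In MTR4-null cytoplasms 0 were higher and 2 lower. Their median differences were 0.55 in the nucleus and -0.07 in the cytoplasm. The part of granulosa RNA in the Ccnb3 values was not tested.

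The other B-type cyclins differed less. Ccnb2, which can stand in for Ccnb1 in mouse oocytes, was at 29.4 FPKM in MTR4-null nuclei and 42.3 FPKM in WT nuclei, a log2 difference of -0.51. Its cytoplasmic values were 27.1 FPKM in MTR4-null and 62.7 FPKM in WT, a difference of -1.18, or -0.62 with centring. Ccnb1 had a difference of -0.20 in the nucleus and -0.77 in the cytoplasm, or -0.41 and -0.19 with centring. The order of the trio, with Ccnb3 lowest and Ccnb1 highest by far, was the same in all 4 columns. As a share of the summed FPKM of all B-type cyclins, which multiplying a column by a factor does not alter, Ccnb1 made up 88.9% in MTR4-null nuclei and 82.6% in WT nuclei, and 87.4% in MTR4-null cytoplasms and 82.1% in WT cytoplasms. Ccnb3 made up 0.899% in MTR4-null nuclei and 5.46% in WT nuclei, and 0.852% in MTR4-null cytoplasms and 2.97% in WT cytoplasms. RefSeq lists the pseudogenes Ccnb1-ps and Ccnb2-ps, which were not analysed here, so the values of Ccnb1 and Ccnb2 are uncertain by any reads they share.

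Cdk1, the kinase that all B-type cyclins activate, did not stand apart. It was at 21.7 FPKM in MTR4-null nuclei and 22.7 FPKM in WT nuclei, a difference of -0.06. In the cytoplasm it was at 13.0 FPKM in MTR4-null and 24.0 FPKM in WT, a difference of -0.84 that centring took to -0.30. Ccnb1 FPKM exceeded Cdk1 FPKM 11.8-fold in MTR4-null nuclei, 13.0-fold in WT nuclei, 15.6-fold in MTR4-null cytoplasms and 14.3-fold in WT cytoplasms.

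Among the inhibitory kinases, Wee1 was the member that was higher without MTR4. Wee1 is the general kinase of this family (chromosome 7 from 110122046 to 110143286, plus strand). It was at 43.3 FPKM in MTR4-null nuclei and 17.1 FPKM in WT nuclei, 2.53-fold higher, with a log2 difference of 1.29. In the cytoplasm it was at 31.0 FPKM in MTR4-null and 18.1 FPKM in WT, 1.71-fold higher, with a log2 difference of 0.74 as deposited and 1.30 with centring. Both MTR4-null values lie above both WT values. These differences are not rare among all genes, at percentiles 82.7 and 80.5. Set against the abundant genes they would stand at percentiles 95.9 and 97.2. The minimum of 20 FPKM in every column, however, leaves out genes that are low in WT and higher without MTR4. Wee1 itself is left out in this way, so these percentiles compare it with genes unlike it. The annotation places the antisense gene 1600010M07Rik across Wee1. It was listed at 1.11 FPKM in MTR4-null nuclei, 0.979 FPKM in WT nuclei, 1.92 FPKM in MTR4-null cytoplasms and 0.159 FPKM in WT cytoplasms, and the labels do not say whether the libraries keep strand.

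Wee2 differed from Wee1. Its nuclear difference was -0.02 and its cytoplasmic difference -1.11, or -0.53 with centring. Wee1 made up 21.96% of the summed Wee1 and Wee2 FPKM in MTR4-null nuclei and 9.91% in WT nuclei. In the cytoplasm Wee1 made up 24.7% of this sum in MTR4-null and 8.14% in WT. Wee2 thus held the larger share in every column, by 3.55-fold in MTR4-null nuclei and 9.09-fold in WT nuclei, and by 3.05-fold in MTR4-null cytoplasms and 11.3-fold in WT cytoplasms.

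**Figure D3:**
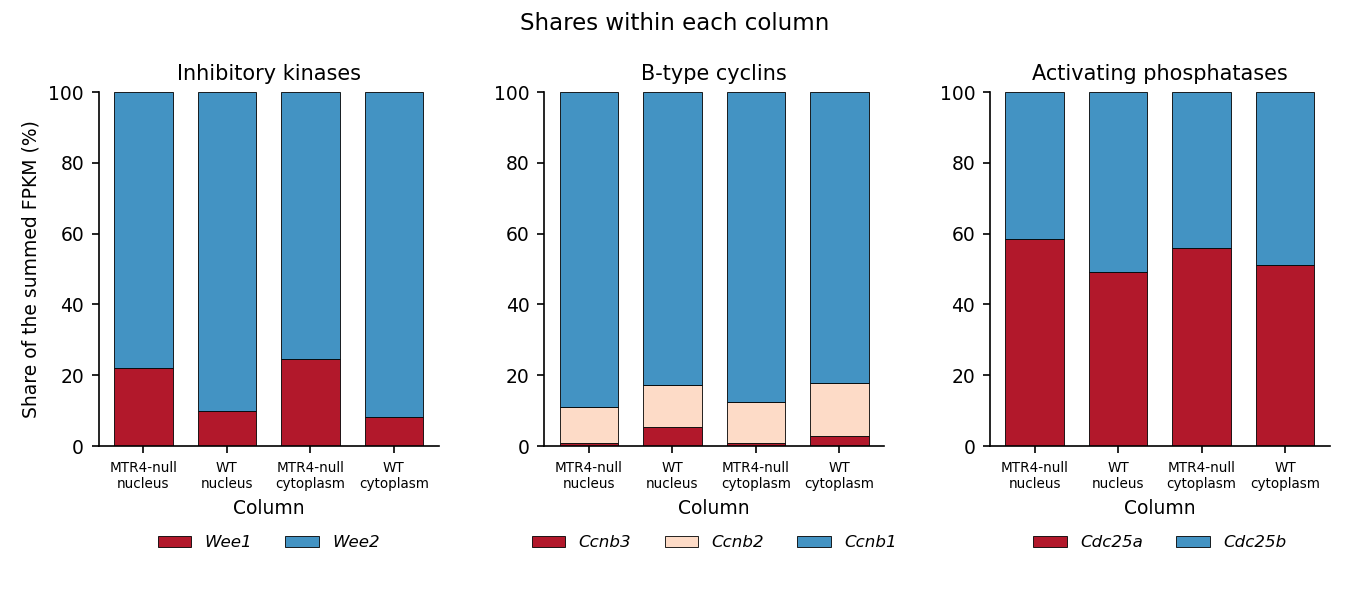
Shares of the summed FPKM (%) within each deposited column, for the inhibitory kinases (left), the B-type cyclins (middle) and the Cdc25 phosphatases (right). Wee1 takes 21.96% and 24.7% in the MTR4-null columns against 9.91% and 8.14% in the WT columns, Ccnb3 takes less than 1% against 5.46% and 2.97%, and Cdc25a takes between 49.0% and 58.5% in all columns.

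The activating phosphatases stayed near the other genes. Cdc25b, without which mouse oocytes do not resume meiosis, was at 45.3 FPKM in MTR4-null nuclei and 46.5 FPKM in WT nuclei, a difference of -0.04. Its cytoplasmic values were 29.1 FPKM in MTR4-null and 53.3 FPKM in WT, a difference of -0.85, or -0.29 with centring. Cdc25a was at 64.0 FPKM in MTR4-null nuclei and 44.8 FPKM in WT nuclei, a difference of 0.51. In the cytoplasm Cdc25a was at 37.0 FPKM in MTR4-null and 56.0 FPKM in WT, a difference of -0.59, or -0.02 with centring. The summed Cdc25a and Cdc25b FPKM, as a share of the sum of these phosphatases and of Wee1 and Wee2, was 35.7% in MTR4-null nuclei and 34.6% in WT nuclei, and 34.5% in MTR4-null cytoplasms and 32.9% in WT cytoplasms. The share of these 4 genes' FPKM held by the phosphatases thus lay between 32.9% and 35.7%. It leaves out Cdc25c and the inhibitory kinase gene Pkmyt1, which was at 31.2 FPKM in MTR4-null nuclei and 34.05 FPKM in WT nuclei, and at 16.7 FPKM in MTR4-null cytoplasms and 32.5 FPKM in WT cytoplasms.

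Plk1 was the second gene that was lower in both compartments (chromosome 7 from 122159439 to 122169873, plus strand). Plk1 RNA was at 55.2 FPKM in MTR4-null nuclei and 124 FPKM in WT nuclei, 2.24-fold lower. In MTR4-null cytoplasms it was at 44.3 FPKM, against 151 FPKM in WT cytoplasms, 3.42-fold lower. The log2 differences were -1.15 and -1.75, or -1.36 and -1.18 with centring. Those as deposited stood at percentiles 9.502 and 3.85 of all genes, and at 1.88 and 3.22 of the abundant genes. The minimum of 20 FPKM in every column, however, leaves out genes that fall below it without MTR4. The percentiles among the abundant genes therefore lack such genes, and Plk1 can look more extreme there. Set against Ccnb1 in the same column, Plk1 FPKM was 0.215 times as high in MTR4-null nuclei and 0.422 times in WT nuclei, and 0.219 times in MTR4-null cytoplasms and 0.439 times in WT cytoplasms. This ratio was nearly equal in both compartments of a genotype and differed between the genotypes.

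Mos, which has a single exon, had a difference of 0.43 in the nucleus and -0.48 in the cytoplasm, or 0.21 and 0.09 with centring. Coding genes with 1 exon other than histones were mostly higher without MTR4, with a median of 0.99 in the nucleus and 0.46 in the cytoplasm over 292 genes. Mos lay at percentiles 37.0 and 12.7 of these genes. The filter asks for 1 FPKM in only 1 column, so genes near 0 in WT can enter through an MTR4-null column. These medians and percentiles therefore rest partly on how the genes were chosen. Mos, at 211 FPKM or more in every column, is not matched to them by level. Differences over all coding genes also went with base composition. With the genes put into 5 equal bins by the GC content of the transcript, the median in the nucleus was -0.08 in the lowest bin and 0.60 in the highest, and in the cytoplasm -0.50 and -0.00. Ccnb3, at 41.3% GC, is in the lowest bin and Plk1, at 56.0% GC, in the highest. Measured from the median of its own bin, Ccnb3 was at -2.43 in the nucleus and -1.68 in the cytoplasm, Plk1 at -1.75 in both, and Wee1 at 1.13 and 1.15. The part of base composition in the differences of these genes was not tested.

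The compartments were compared to see whether these mRNAs were relatively nuclear or cytoplasmic. In WT, 0 of the 10 genes were at least 2-fold higher or lower in nuclei than in cytoplasms, against 12.4% of all genes higher and 4.71% lower. In MTR4-null oocytes the count was also 0 in both directions, against 17% higher and 1.84% lower. Nuclear differences in WT ran from -0.55 (Ccnb2) to 0.60 (Ccnb3), and only Ccnb3 had the higher value in nuclei, at 19.4 FPKM against 12.4 FPKM in cytoplasms. In MTR4-null oocytes all 10 genes had the higher FPKM in nuclei, from 0.11 (Ccnb2) to 0.78 (Cdc25a), with a median of 0.55 against 0.52 over all genes, but with centring by the median ratio 3 of the 10 did. After that centring 3 of the 10 were also above 0 in WT, and the medians were -0.09 in MTR4-null and -0.11 in WT. Centred on the median of all genes instead, 5 were above 0 in MTR4-null and 1, Ccnb3, in WT. The difference of these differences was at least 1 log2 unit for 2 genes, Cdc25a and Wee2 at 1.09 each, and at most -1 for 0, against 27% and 10.7% of all genes, and centring took these to 0.32 and 0.31.

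The difference between nucleus and cytoplasm of RNAs known as nuclear was not alike in both genotypes. Malat1, a long RNA that stays in the nucleus, was at 173 FPKM in MTR4-null nuclei and 69.6 FPKM in MTR4-null cytoplasms, against 181 FPKM in WT nuclei and 8.63 FPKM in WT cytoplasms. Terc, the RNA of telomerase, was at 234 FPKM in MTR4-null nuclei and 83.5 FPKM in MTR4-null cytoplasms, against 455 FPKM in WT nuclei and 1.32 FPKM in WT cytoplasms. Over 5 nuclear RNAs the median difference between nucleus and cytoplasm was 1.26 in MTR4-null and 3.94 in WT. At least 2-fold higher in nuclei were 3 of the 5 in MTR4-null and 4 in WT, or 0 and 4 with centring. A less complete separation of the compartments and another place of these RNAs without MTR4 cannot be told apart here. How far either touches the compartment values of the 10 genes was not tested.

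**Figure D4:**
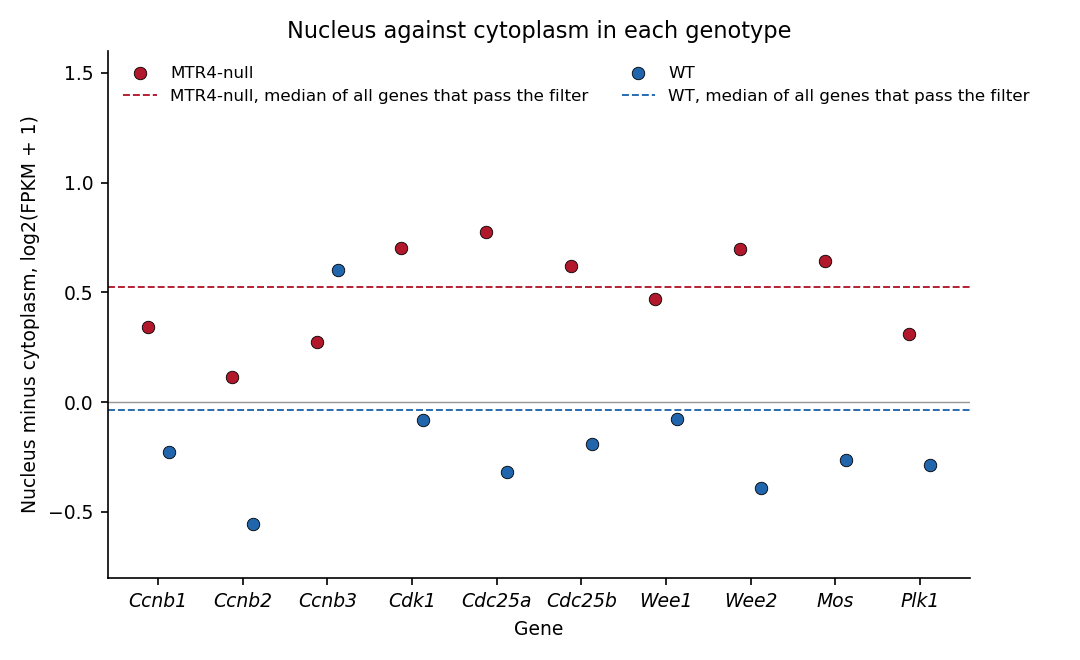
Difference between nucleus and cytoplasm in log2(FPKM + 1) for each gene, in MTR4-null (red, left) and WT (blue, right) oocytes, with dashed lines at the medians of all genes that pass the filter (0.52 in MTR4-null and -0.04 in WT). The MTR4-null points lie above 0 for all 10 genes, and the WT points below 0 for all but Ccnb3, while centring by the median ratio leaves 3 genes above 0 in each genotype, and centring on the median of all genes leaves 5 in MTR4-null and 1 in WT.

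Other genes of the same pathway were read from 6 lists with 54 genes, of which 53 were in the table and 49 passed the filter. In MTR4-null nuclei 7 of the 49 were 2-fold or more higher and 5 lower, against 23.9% and 12.3% of all genes, and their median was 0.01. In the cytoplasm 2 were higher and 14 lower, against 15% and 21.4% of all genes, with a median of -0.64. With centring 4 were higher and 5 lower in the nucleus, against 19.5% and 15% of all genes. In the cytoplasm 5 were higher and 6 lower with centring, against 22.1% and 7.76% of all genes. These shares of all genes, deposited and centred, are also the background for the counts of each list below. The deposited medians lie below those of all genes, as do those of the 10 genes. The abundant genes had medians of 0.10 in the nucleus and -0.72 in the cytoplasm, so the cytoplasmic pathway median lies above theirs. With centring the pathway medians were -0.20 and -0.08, against -0.11 and -0.16 for the abundant genes and 0.03 and 0.09 for all genes.

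Among partners and regulators of Cdk1, 2 of 11 genes (Cdk2 and Mnat1) were at least 2-fold higher and 3 lower in MTR4-null nuclei, and 0 were higher and 4 lower in MTR4-null cytoplasms. With centring 0 were higher and 3 lower in the nucleus, where Cdk2 and Mnat1 came to 0.94 and 0.84, and 1 higher and 4 lower in the cytoplasm. The subunits of the Cdk-activating kinase went apart. Cdk7, its catalytic subunit, was at 42.3 FPKM in MTR4-null nuclei and 86.4 FPKM in WT nuclei, and at 22.1 FPKM in MTR4-null cytoplasms and 84.1 FPKM in WT cytoplasms. Its cyclin Ccnh was at 2.45 FPKM in MTR4-null nuclei and 12.4 FPKM in WT nuclei, and at 3.49 FPKM in MTR4-null cytoplasms and 12.3 FPKM in WT cytoplasms. Both of these were lower in both compartments. The other subunit, Mnat1, was at 14.7 FPKM in MTR4-null nuclei and 6.65 FPKM in WT nuclei, but at 2.56 FPKM in MTR4-null cytoplasms and 9.08 FPKM in WT cytoplasms. Cdc25c, the remaining phosphatase of the family, was low throughout, at 0.852 FPKM in MTR4-null nuclei and 4.49 FPKM in WT nuclei, and at 1.37 FPKM in MTR4-null cytoplasms and 5.37 FPKM in WT cytoplasms. The small Cdk-binding proteins Cks2 and Cks1b had the highest mean FPKM of the list. They had nuclear differences of -0.09 and -0.24 and cytoplasmic differences of -0.79 and -0.72.

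Greatwall kinase, the product of Mastl, restrains the phosphatase PP2A-B55, which opposes Cdk1. Of 10 genes of this branch, 1 was at least 2-fold higher and 0 lower in MTR4-null nuclei, and 1 was higher and 2 lower in MTR4-null cytoplasms, or 2 higher and 1 lower with centring, where Mastl came to -0.95. Mastl was at 24.5 FPKM in MTR4-null nuclei and 37.3 FPKM in WT nuclei, and at 17.1 FPKM in MTR4-null cytoplasms and 50.3 FPKM in WT cytoplasms. The gene higher in both was Ppp2cb, a catalytic subunit of PP2A, at 22.1 FPKM in MTR4-null nuclei and 4.01 FPKM in WT nuclei, and at 18.5 FPKM in MTR4-null cytoplasms and 2.17 FPKM in WT cytoplasms. Its relative Ppp2ca, at 52.5 FPKM in MTR4-null nuclei and 60.8 FPKM in WT nuclei, was the more abundant catalytic subunit. Ppp2r2b, a B55 subunit, was the other lower gene, at 5.83 FPKM in MTR4-null cytoplasms and 18.7 FPKM in WT cytoplasms. The scaffold gene Ppp2r1a had differences of 0.42 in the nucleus and -0.47 in the cytoplasm.

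Below Mos in the MAP kinase cascade, 0 of 7 genes were at least 2-fold higher and 1 lower in MTR4-null nuclei, and 0 were higher and 2 lower in MTR4-null cytoplasms, or 1 lower with centring. The lower gene in both was Mapk3, which encodes ERK1. Mapk3 was at 67.7 FPKM in MTR4-null nuclei and 160.1 FPKM in WT nuclei, and at 44.9 FPKM in MTR4-null cytoplasms and 213 FPKM in WT cytoplasms. Map2k1, a kinase that acts between Mos and ERK1, had differences of 0.28 in the nucleus and -0.93 in the cytoplasm.

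Of 4 genes that pass the filter among Aurora A, Tpx2 and the other Polo-like kinases, 0 were at least 2-fold higher and 1 (Plk3, at most 3.61 FPKM) lower in MTR4-null nuclei, and 0 were higher and 2 lower in MTR4-null cytoplasms. With centring 0 were lower in the cytoplasm, where Aurka came to -0.88 and Plk3 to -0.83. Aurka, the kinase that activates Plk1, was at 79.5 FPKM in MTR4-null nuclei and 105 FPKM in WT nuclei, and at 52.6 FPKM in MTR4-null cytoplasms and 145 FPKM in WT cytoplasms. Its activator Tpx2 had differences of -0.03 and -0.74. The 2-fold lower value of Plk1 in the nucleus was shared by Plk3, at -1.91 but with low FPKM. It was not shared by Aurka, Tpx2 or Plk4, whose nuclear differences ran from -0.40 to -0.03.

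For the machinery that degrades B-type cyclins and its inhibitors, 1 of 7 genes was at least 2-fold higher and 0 lower in MTR4-null nuclei, and 0 were higher and 3 lower in MTR4-null cytoplasms. Fzr1, the activator of the anaphase-promoting complex that keeps cyclin B low during prophase arrest, was at 189 FPKM in MTR4-null nuclei and 91.6 FPKM in WT nuclei, and at 112 FPKM in MTR4-null cytoplasms and 87.9 FPKM in WT cytoplasms. Cdc20, the activator used in metaphase, had differences of -0.25 and -0.46. The lower genes in the cytoplasm were Fbxo43, an inhibitor of this complex in the egg, at 19.7 FPKM in MTR4-null and 43.4 FPKM in WT, the phosphatase gene Cdc14b at 8.19 FPKM in MTR4-null and 19.9 FPKM in WT, and Btrc at 16.3 FPKM in MTR4-null and 37.0 FPKM in WT. With centring 0 of these 7 genes were 2-fold apart in either compartment.

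The list of other cyclins had a median of 0.55 in the nucleus and -0.12 in the cytoplasm. In MTR4-null nuclei 3 of 10 were at least 2-fold higher and 0 lower, and in MTR4-null cytoplasms 1 was higher and 1 lower, or 2 higher and 0 lower with centring. Ccne1, the cyclin of entry into S phase, was at 28.4 FPKM in MTR4-null nuclei and 1.04 FPKM in WT nuclei, and at 16.1 FPKM in MTR4-null cytoplasms and 1.64 FPKM in WT cytoplasms. Ccnd3 was at 38.8 FPKM in MTR4-null nuclei and 12.2 FPKM in WT nuclei, and Ccng1 at 8.51 FPKM in MTR4-null nuclei and 1.71 FPKM in WT nuclei. Ccnd2 was the lower one, at 5.33 FPKM in MTR4-null cytoplasms and 14.4 FPKM in WT cytoplasms. Ccno, the most abundant cyclin RNA of all those listed, was at 739 FPKM in MTR4-null nuclei and 489.9 FPKM in WT nuclei, above Ccnb1 in each column. Ccni, the next in this list, had differences of 0.27 and -0.25.

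**Figure D5:**
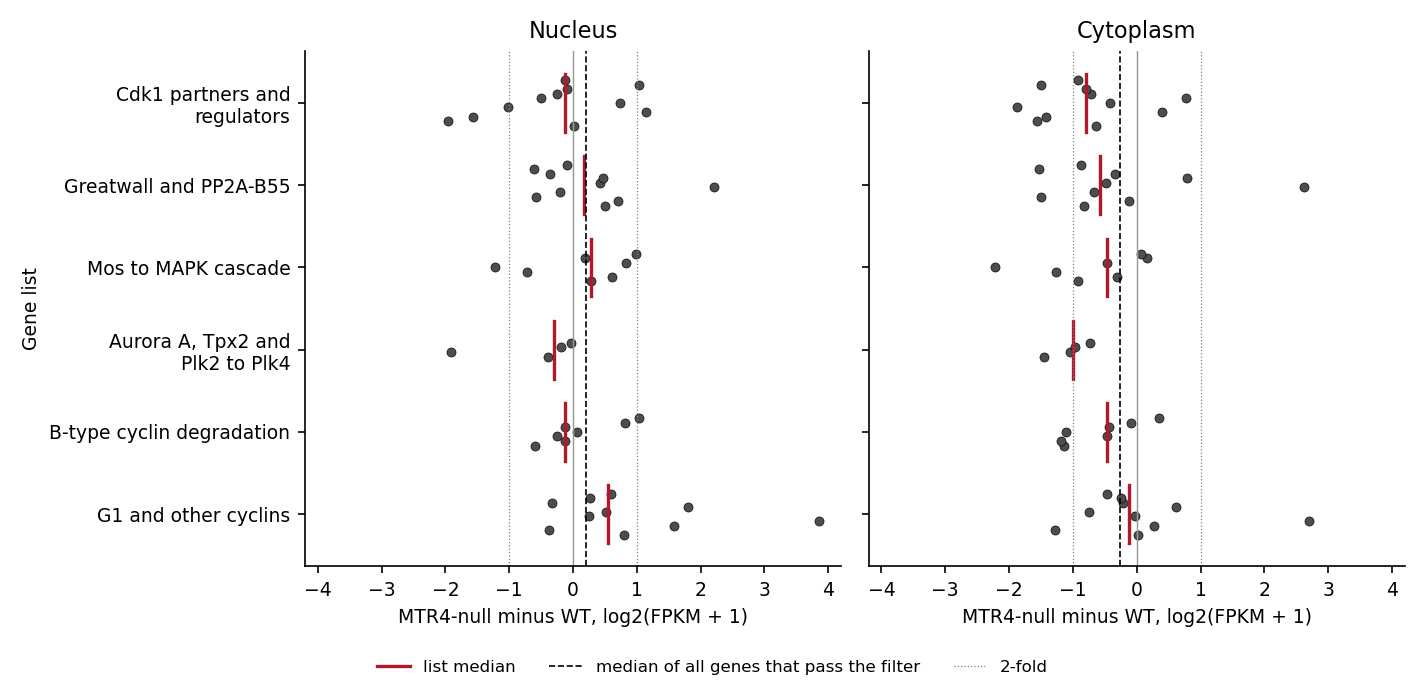
Difference between MTR4-null and WT in log2(FPKM + 1) for the 49 pathway genes that pass the filter, in the nucleus (left) and in the cytoplasm (right), 1 point per gene, in 6 lists down the page. Red bars are list medians, the dashed line is the median of all genes (0.21 and -0.26) and dotted lines mark 2-fold. The point farthest right in each panel is Ccne1, at 3.85 and 2.69.

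Patterns over the 4 columns were compared with those of 10303 genes at 5 FPKM or more in at least 1 column, by the Euclidean distance between values of log2(FPKM + 1) centred on each gene's mean. The nearest gene to Ccnb1 was Mapk6 at a distance of 0.016, to Cdk1 it was Clk3 at 0.015, to Cdc25b it was Ern1 at 0.016, to Wee2 it was Elp2 at 0.014 and to Mos it was Fdx1 at 0.020. For Ccnb2 it was Aldh3a2 at 0.024 and for Cdc25a it was Dcaf11 at 0.036. The distance uses the same values in which the genotypes differ, so a gene far from the rest tends to have few near neighbours. Larger distances are thus no separate result. The genes that differed most had neighbours farther away. These were Gm4975 at 0.102, Gfra1 at 0.126 and Rab13 at 0.153 for Ccnb3, Phf14 at 0.061, Gm11545 at 0.078 and 2700029M09Rik at 0.084 for Plk1, and Smad5 at 0.052, Gpn2 at 0.060 and D330050I16Rik at 0.081 for Wee1. Among the 10 genes themselves, Cdk1 and Cdc25b were the closest pair at 0.098, followed by Cdc25a and Mos at 0.0999. No other of the 10 genes came closer than 1.09 to Ccnb3 or 1.06 to Wee1, and none closer than 0.649 to Plk1. With 4 points per gene, a short distance is easily reached.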

How the data were processed

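The authors deposited a table of FPKM with 1 column for each of 4 groups, and no further column of sample values was left out of use. TopHat2 2.1.1, Cufflinks 2.2.1 and the build mm9 are named in the submitters' processing notes, without settings. Per the labels' protocols, rRNA was removed and fragments of 300 to 400 bp were read as paired ends of 150 bp. Many deposited values (39.0% to 58.9% of those above 0 in a column) end in recurring decimals, as means of 3 values can, while the labels list 3 libraries only for WT nuclei. The read depth is unknown, so no interval is given. A last row that holds the column sums was left out.

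Differences are of log2(FPKM + 1), computed with pandas 2.3.3 in Python 3.11.15 over 14270 genes at 1 FPKM or more in at least 1 column, and called at 2-fold. The planned model could not be run on group columns. The calculation was tested on simulated data. Alternatives were pseudocounts, filters, 4 scalings, a 1.5-fold call and GC content. The 10 genes, the 6 lists and the tests were chosen with earlier results of these data known. All 10 genes are named. From each list the text names up to 4 genes at least 2-fold apart by genotype at 5 FPKM or more and the 2 with the highest mean, and from all genes the 3 closest patterns. Granulosa markers, Plk3, Plk4, Cdk2, Pkmyt1, Malat1, Terc and the antisense gene were chosen after their values were seen. Sequences are from RefSeq and GENCODE on GRCm38, and no coordinate of mm9 is used. The values of 1 gene of the lists are not reported here.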

Additional observations from a re-analysis of the deposited data

Results flagged for a closer look

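Cdc25a and Mos had values of opposite sign in the compartments. Cdc25a was higher in MTR4-null than in WT nuclei by 0.51 on the log2(FPKM + 1) scale and lower in MTR4-null than in WT cytoplasms, at -0.59. Mos was at 0.43 in the nucleus and -0.48 in the cytoplasm. Each rests on 1 column per group, and the difference between the compartments was not tested. A higher nuclear and a lower cytoplasmic value was also seen for 26.6% of the 14270 genes. Centring left -0.02 for Cdc25a and 0.09 for Mos in the cytoplasm.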

How the results depend on the processing

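The nuclear counts (1 gene higher, 2 lower) were the same under every alternative run. In the cytoplasm the counts were 0 higher and 4 lower as deposited. They became 1 higher and 2 lower under centring by the median ratio, centring on all genes, rescaling to the sum of genes other than small RNAs, quantile normalization, and comparison within 5 bins of GC content (chosen after seeing the data), and 1 higher and 8 lower with a call at 1.5-fold. The 2 genes with a 2-fold change of the nucleus-cytoplasm difference became 0 under each of the 4 scalings and 7 at 1.5-fold. At 1.5-fold, 5 genes in MTR4-null and 1 in WT were higher in the nucleus, against 0 each at 2-fold. The share of all genes called at 1.5-fold was not counted, so the counts at 1.5-fold have no background. As deposited, the cytoplasmic median between genotypes was -0.26 over all genes and -0.72 over the abundant genes. Nuclear differences over all alternatives lay between -2.90 and -1.69 for Ccnb3, -1.75 and -1.10 for Plk1, and 1.03 and 1.33 for Wee1. Cytoplasmic ones lay between -2.60 and -1.32, -1.77 and -1.11, and 0.64 and 1.32 for these genes. No paired analysis was possible because each column is a group and carries no replicate number, so the replicate block was not run, and leaving out single replicates was not run for the same reason. The unknown depth limits Ccnb3 most, since its MTR4-null values are the lowest.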
